A study of Mus musculus with 12 samples.

Results

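The genes described are 41 genes of DNA damage signalling and repair, taken from the kinases that report damage and from the pathways that mend it. Members were found as the probe sets whose only gene symbol in the platform annotation is 1 of the 41 symbols. Of the 41 genes, 39 had at least 1 such probe set, among 18193 genes in all, and 88 probe sets were found for them. H2afx and Xrcc2 had none and were not analysed here. Each gene was represented by the probe set that was brightest on average (mean log2 signal), and genes whose mean was at or above a log2 signal of 5.97 (a signal of 62.6, the median of all probe sets) were tested. All 39 members passed, within 11105 tested genes.

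The arrays held RNA of mouse epiblast stem cells (EpiSCs), pluripotent cells in the state of the postimplantation epiblast. All groups shared one culture medium, N2B27 supplied with the growth factors bFGF and Activin A. The 12 arrays form 4 groups of 3 biological replicates: diploid EpiSC-1 and diploid EpiSC-2, of strain B6D2F1, and haploid EpiSC-1 and haploid EpiSC-2, of strain 129Sv. The numbers 1 and 2 were taken to name distinct cell lines within a ploidy. Because strain changes with ploidy, a difference between haploid and diploid lines is also a difference between strains, and the strain and the ploidy cannot be told apart. Passage, clonality and the share of cells in the haploid cultures that still held a single chromosome set are not stated in the labels. The p-values between lines measure the spread between replicates of a line.

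Damaged DNA is reported by the kinases Atm, which responds to double-strand breaks, and Atr, which responds to single-stranded DNA at stalled replication forks. Both act on the checkpoint kinases Chek2 and Chek1, which delay the cell cycle while repair proceeds. Breaks are mended by homologous recombination, which copies an intact sister chromatid, or by end joining, while single damaged or mispaired bases are removed by the excision and mismatch pathways. Haploid cells have no second copy of each chromosome before replication, and pluripotent cells divide fast and rely on replication-coupled checkpoints.

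Each array was scaled to a trimmed mean signal of 500.003, array medians lay between 63.6 and 76.5, and the correlation between replicates within a line was 0.989 to 0.992. The summed signal of 13 fibroblast feeder markers was 3180 to 7620 on the diploid arrays and 37049 to 41204 on the haploid arrays. By the mean of a line, 7 of the 13 were under the filter in diploid EpiSC-1, 4 in diploid EpiSC-2 and 0 in each haploid line. The summed signal of 10 epiblast stem cell markers was 78752 to 90262 on the diploid arrays and 36014 to 52923 on the haploid arrays, with 0 under the filter in each line. Within the haploid lines this sum was 36014 to 36539 in haploid EpiSC-1, where the primed epiblast markers Otx2 and Fgf5 had mean log2 signals of 6.20 and 6.38, and 50513 to 52923 in haploid EpiSC-2, where they had 11.16 and 11.24. Signals of bulk RNA do not tell fewer cells of a type from less RNA per cell. The ratio of the 3' to the 5' actin control probe sets, a measure of RNA integrity, was 1.46 to 1.68 on the diploid and 1.34 to 1.42 on the haploid arrays.

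The first comparison asked how the repair genes differ between haploid and diploid EpiSCs. Of 39 members, 7 had lower signals in the haploid lines at a Benjamini-Hochberg adjusted p under 0.05 (limma, with the cell line as a random block), and none had higher signals. These were the damage kinases Atr and Chek2, the break sensor Rad50, the recombination genes Brca2 and Rpa1, the end-joining kinase Prkdc and the mismatch repair gene Msh6. They were 1.45-fold to 1.93-fold lower. Each ploidy had only 2 lines, and on simulated data this fit also called genes that had been left unchanged. Its adjusted p-values may therefore understate the share of false calls. With the 4 lines as the units, limma called 0 of 39 members. Differences are on the log2 scale, haploid minus diploid, with the standard error (SE) of the fit over 6 haploid and 6 diploid arrays.

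The 7 members called are 17.9% of 39, beside 17.2% of all tested genes called in either direction. Lower calls alone were 7.54% of all tested genes and higher calls 9.69%. The median difference was -0.25 over the members and 0.00 over all genes, and 33 of 39 members lay below 0, as did 5529 of 11105 genes. The members ranged from -0.95 for Atr to 0.54 for Xpa. In 11 of 39 members (28.2%) the haploid and diploid arrays did not overlap, beside 31.9% of all tested genes. In all 11 the haploid arrays were the lower ones, which held for 14.8% of all tested genes, and no member had the opposite order, which held for 17.1%. On the probe sets used, no member was called with a difference of 2-fold or more, beside 8.72% of all tested genes. When the 4 lines and not the arrays were the units, limma called 0 of 39 members (lowest adjusted p 0.0779), with 7 members at an unadjusted p under 0.05, all lower. It called 325 of all genes (2.93%), with 2344 of 11105 at an unadjusted p under 0.05, 984 of them lower. When signals were centred on array medians, the median of all genes shifted by -0.12, to -0.12, and calls over all genes went from 1076 higher and 837 lower to 812 higher and 1086 lower. Setting each gene against the median of its chromosome gave 844 higher and 1118 lower. Members called were still all lower under both, 10 and 9 of 39.

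**Figure D1:**
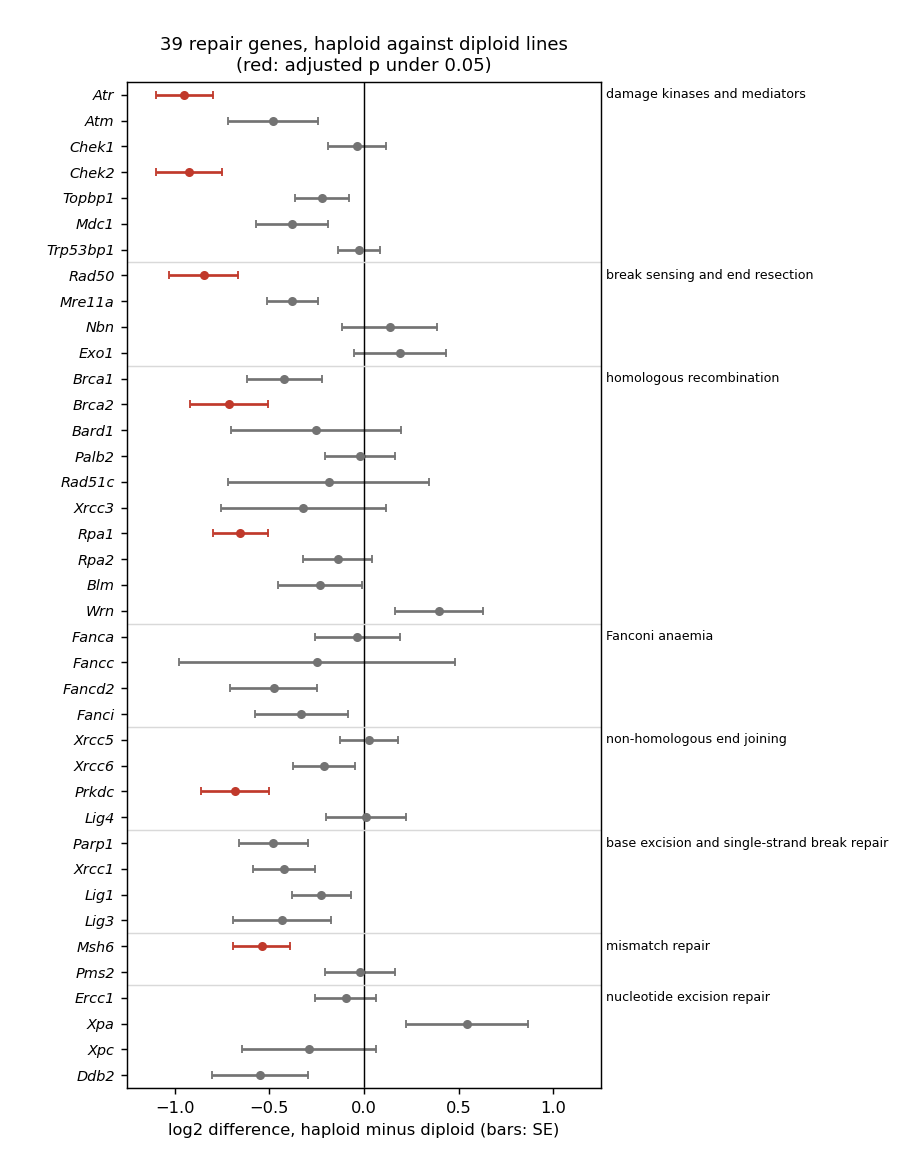
The plot of haploid minus diploid differences shows the log2 difference of each of the 39 members (points) with its SE (bars), grouped by pathway, with adjusted p under 0.05 in red. The 7 red points all lie to the left of 0, between -0.95 and -0.54.

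Among the 7 kinases and mediators, 2 were called lower, and all 7 had a difference below 0. Atr, the kinase of replication stress, gave signals of 1876, 2005 and 1894 in diploid EpiSC-1, 1586, 1689.9 and 1754 in diploid EpiSC-2, 988, 981 and 925 in haploid EpiSC-1, and 922, 876 and 892 in haploid EpiSC-2. Every haploid array lay below every diploid array, and the haploid arrays spanned 876 to 988. The difference was -0.95 ± 0.15 (SE; 1.93-fold; limma adjusted p = 4.55e-04; adjusted p = 0.0779 with line means as the units). Atr also had 2 dimmer probe sets above the filter whose haploid and diploid arrays overlapped, and on the mean of all its probe sets the difference was -0.70 with an adjusted p of 0.123.

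Chek2, the checkpoint kinase that Atm activates, gave signals of 1545, 1444 and 1436 in diploid EpiSC-1, 1118, 1078 and 1052 in diploid EpiSC-2, 647, 648 and 686 in haploid EpiSC-1, and 663, 699.8 and 648 in haploid EpiSC-2. Both haploid lines sat near the same level, below both diploid lines, and diploid EpiSC-2 lay below diploid EpiSC-1. The difference was -0.93 ± 0.17 (SE; limma adjusted p = 0.00167; 0.114 with line means as the units).

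The other mediators did not pass the test. Atm itself spanned 539 to 895 on the diploid arrays and 428 to 586 on the haploid arrays, which overlapped (-0.48 ± 0.24 SE, adjusted p = 0.189). A second Atm probe set, described after its values were seen, gave 913, 997 and 857 in diploid EpiSC-1, 624, 489 and 505 in diploid EpiSC-2, 224, 274 and 269 in haploid EpiSC-1, and 251, 277 and 273 in haploid EpiSC-2, with all haploid arrays below all diploid ones. Its difference was -1.43 (adjusted p = 0.00282 in a limma fit of all probe sets), and the mean of all Atm probe sets was called lower, at -0.96 (adjusted p = 0.00716). Chek1, the checkpoint kinase that Atr activates, differed by -0.04, and Topbp1, which activates Atr, by -0.22. Mdc1, a scaffold at marked breaks, differed by -0.38 and Trp53bp1, which steers breaks toward end joining, by -0.03. The brightest Trp53bp1 probe set varied little, with signals of 4991 to 5563 over all 12 arrays.

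Of the 4 genes of break sensing and end resection, 1 was called lower. Rad50, the ATPase that holds broken ends in the complex of Mre11, Rad50 and Nbn, gave 2536, 2389 and 2326 in diploid EpiSC-1, 1952, 1963 and 2093 in diploid EpiSC-2, 1201, 1332 and 1101 in haploid EpiSC-1, and 1168, 1238 and 1310.4 in haploid EpiSC-2. The haploid lines overlapped each other and lay below both diploid lines. The difference was -0.85 ± 0.18 (SE; limma adjusted p = 0.00455; 0.097 with line means as the units). On the mean of this and its second probe set, which lay under the filter, the difference was -0.62 with an adjusted p of 0.838. Mre11a, the nuclease of the complex, spanned 1925 to 2261 on diploid and 1480.0 to 1713 on haploid arrays, without overlap but short of the threshold (-0.38 ± 0.14 SE, adjusted p = 0.0635). Nbn, the remaining subunit, and Exo1, an exonuclease that lengthens the resected end, had differences above 0, of 0.14 and 0.19, with overlapping arrays.

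Of the 10 recombination genes, 2 were called lower. Brca2, which loads the recombinase onto single-stranded DNA, gave 1459, 1580.1 and 1488 in diploid EpiSC-1, 1334, 1151 and 1384 in diploid EpiSC-2, 742, 689.9 and 693 in haploid EpiSC-1, and 1004, 1002 and 1054 in haploid EpiSC-2. The haploid arrays lay below the diploid ones, with haploid EpiSC-1 lowest. The difference was -0.71 ± 0.21 (SE; limma adjusted p = 0.0246; 0.202 with line means as the units). Without diploid EpiSC-1 the difference was -0.60 (adjusted p = 0.0958) and without haploid EpiSC-1 -0.45 (adjusted p = 0.149). Rpa1, the large subunit of the protein that coats single-stranded DNA, gave 10495, 9692 and 10829 in diploid EpiSC-1, 9055, 8749 and 9755 in diploid EpiSC-2, 5881, 5819.9 and 6220.0 in haploid EpiSC-1, and 6642, 6605 and 6024 in haploid EpiSC-2. The highest haploid array was below the lowest diploid array, and the difference was -0.65 ± 0.14 (SE; limma adjusted p = 0.0053; 0.0872 with line means as the units). A second Rpa1 probe set gave 5852, 5500.3 and 5868 in diploid EpiSC-1, 3592, 3703 and 3578 in diploid EpiSC-2, 3039, 3176 and 2992 in haploid EpiSC-1, and 3121, 3183 and 3119 in haploid EpiSC-2, again without overlap between the ploidies.

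Rpa1 and Rad50 lie on chromosome 11, where the median difference of 917 tested genes was -0.30, with 31 called higher and 182 lower. Set against the median of the gene's chromosome, Rpa1 differed by -0.42 (adjusted p = 0.0533) and Rad50 by -0.61 (adjusted p = 0.026). The shift applied in that setting was not the median of differences given here. Brca1, Rad51c and Lig3 lie on the same chromosome and were not called. The other called members lie on chromosomes 5, 9, 16 and 17, where the medians were between -0.05 and 0.06.

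The remaining recombination genes did not pass the test. Brca1 and Bard1, which form a ubiquitin ligase, differed by -0.42 and -0.25, and Palb2, which joins Brca1 to Brca2, by -0.02. The recombinase paralogs Rad51c and Xrcc3 differed by -0.19 and -0.32. Rpa2, the partner of Rpa1, differed by -0.14. The helicase Blm differed by -0.23 and the helicase Wrn by 0.39, the only recombination member above 0 on the probe sets used. Dimmer probe sets had the opposite sign for Wrn (-0.40), Rad51c (0.07), Xrcc3 (0.15) and Rpa2 (0.08), and none of these was called.

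**Figure D2:**
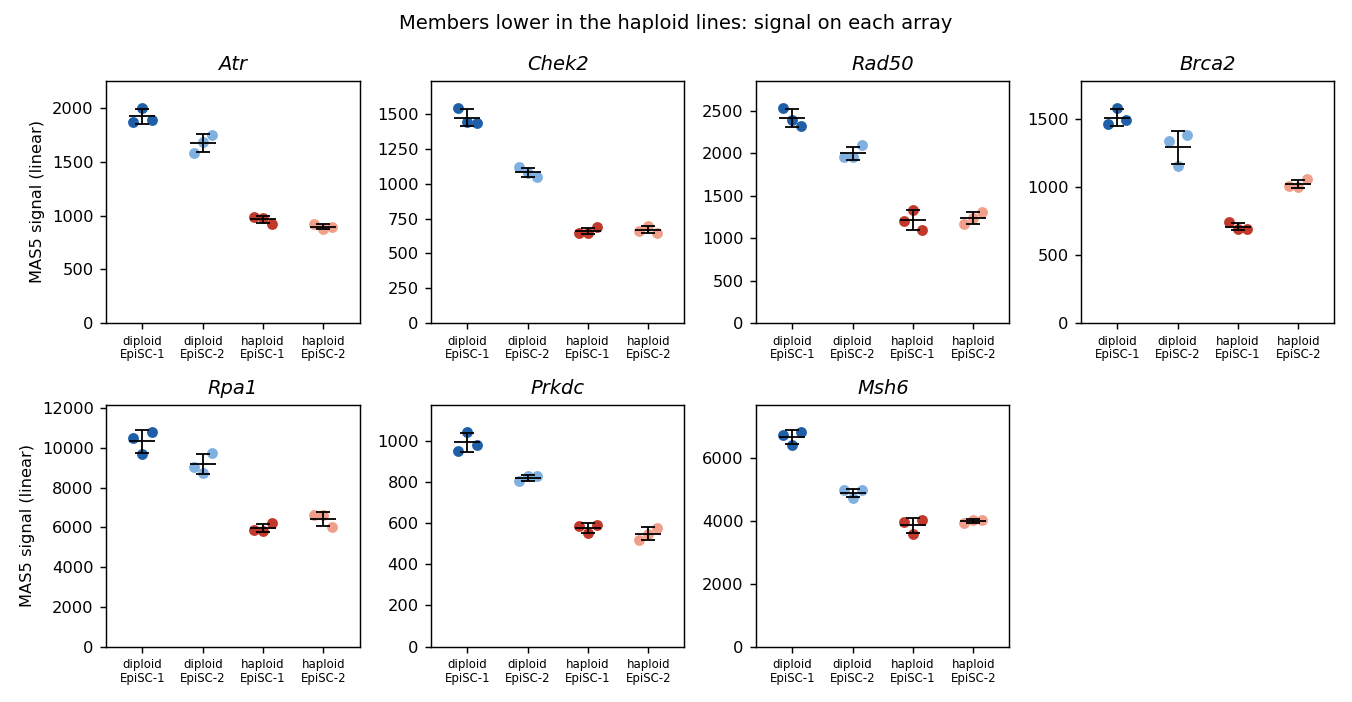
Linear MAS5 signal (vertical axis, from 0) of the 7 members called lower in the haploid lines, for each array of the 4 lines (points), with the mean and the standard deviation of 3 replicates (bars). The 6 haploid points of each gene lie below its 6 diploid points.

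None of the 4 Fanconi anaemia genes, which act on crosslinked DNA, was called. Fanca and Fancc, of the core complex, differed by -0.03 and -0.25, and Fancd2 and Fanci, the pair that this complex modifies, by -0.48 and -0.33. All 4 differences were below 0, and all 4 genes had overlapping arrays.

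In non-homologous end joining, 1 of 4 genes was called. Prkdc, the catalytic subunit of the DNA-dependent protein kinase, gave 951, 1044 and 981 in diploid EpiSC-1, 802, 829 and 827 in diploid EpiSC-2, 586, 549 and 593 in haploid EpiSC-1, and 518, 549 and 578 in haploid EpiSC-2. All haploid arrays were below all diploid arrays, and the difference was -0.68 ± 0.18 (SE; limma adjusted p = 0.0152; 0.18 with line means as the units). Its partners in the kinase, Xrcc5 and Xrcc6, which form the Ku ring on broken ends, differed by 0.03 and -0.21 and were not called. Lig4, which seals the joined ends, differed by 0.01, with signals of 483 to 561 on diploid and 481 to 568 on haploid arrays.

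No gene of base excision and single-strand break repair was called, although all 4 lay below 0 and 2 had arrays that did not overlap. Parp1, which marks single-strand breaks, spanned 3308 to 3928 on diploid and 2266 to 3283 on haploid arrays (-0.48 ± 0.18 SE, adjusted p = 0.0788), and it was called when array 3 of haploid EpiSC-2 was left out (-0.52, adjusted p = 0.0312). The other Parp1 probe sets above the filter differed by -0.11, -0.07 and 0.81, and none was called. Xrcc1, the scaffold of the same repair, spanned 1024 to 1282 on diploid and 777 to 873 on haploid arrays (-0.42 ± 0.16 SE, adjusted p = 0.0874). The ligases Lig1 and Lig3 differed by -0.22 and -0.43.

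Of the 2 mismatch repair genes, 1 was called. Msh6, which recognises mispaired bases, gave 6742, 6398 and 6836 in diploid EpiSC-1, 4968, 4723 and 4964 in diploid EpiSC-2, 3960.1, 3570.1 and 4033 in haploid EpiSC-1, and 3923, 4029 and 4022 in haploid EpiSC-2. Diploid EpiSC-1 was highest, and the haploid lines lay together below diploid EpiSC-2. The difference was -0.54 ± 0.15 (SE; limma adjusted p = 0.02; 0.207 with line means as the units). Pms2, which nicks the strand to be replaced, differed by -0.02.

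No nucleotide excision gene was called. Ddb2, which finds ultraviolet damage, spanned 511 to 606 on diploid and 273 to 504 on haploid arrays, without overlap (-0.55 ± 0.25 SE, adjusted p = 0.159). Xpc, a second damage sensor, differed by -0.29, and Ercc1, part of an incision nuclease, by -0.10. Xpa, which verifies the lesion, had the highest difference of all members, at 0.54 ± 0.32 (SE), and was not called (adjusted p = 0.287).

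Leaving out whole lines changed the count of calls. Without diploid EpiSC-1, 4 of 39 members were called, beside 18.5% of all genes. Brca2 (-0.60), Msh6 (-0.32, adjusted p = 0.127) and Prkdc (-0.55, adjusted p = 0.0648) then missed the threshold. Without diploid EpiSC-2, 14 members were called, all 7 among them, beside 20.3% of all genes. Without haploid EpiSC-1, 8 were called, with Brca2 lost, beside 12.7%, and without haploid EpiSC-2, 9 were called, beside 25.5%. Leaving out 1 array at a time kept all 7 calls in each of 12 fits. Among the 19 members with several probe sets above the filter, 9 had differences of one sign and 10 of both signs, so that the choice of probe set can turn the direction of members that were not called. With every probe set tested as its own row, 9 of 67 member probe sets (13.4%) were called, all lower, beside 15.9% of all probe sets tested.

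The direction was similar among other genes of these pathways. Of 85 further repair genes listed, 71 were tested, and 11 were called lower and 1 higher (16.9%, beside 17.2% of all genes), with a median of -0.16. The lowest p-values belonged to Ercc5, an incision nuclease of nucleotide excision (-1.42, limma adjusted p = 4.31e-04), Fancl, the ubiquitin ligase of the Fanconi core complex (-1.02, adjusted p = 5.57e-04), and Uimc1, which brings Brca1 to ubiquitin at breaks (-1.10, adjusted p = 9.01e-04). Rad54b, a motor protein of recombination, was the one called higher (1.01, adjusted p = 0.0117). Cell cycle genes stood beside these values: of 20 S-phase genes 1 was called higher and 2 lower, and of 14 G2/M genes 6 were called lower and none higher. The median was -0.05 for the S-phase genes, with 14 of 20 below 0, and -0.26 for the G2/M genes, with 13 of 14 below 0. Of 12 tested feeder markers 9 were called higher, and of 10 epiblast markers 6 were called lower and 1 higher. The part of these markers in the repair gene differences was not tested.

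Promoters are shown for the called members because these genes had the same direction in the same lines. RefSeq sequence of GRCm38.p6 was available for 31 members (35 start sites), and among the called genes for Atr, Chek2, Brca2, Rpa1 and Msh6. Each line gives the 250 bases before the start site, on the strand of the gene, and capitals mark the motifs searched on both strands. The windows are chr9:95857347-95857596 (plus strand) for Atr, chr5:110839733-110839982 (plus strand) for Chek2, chr5:150522371-150522620 (plus strand) for Brca2, chr11:75348384-75348633 (minus strand) for Rpa1 and chr17:87974800-87975049 (plus strand) for Msh6.
Atr: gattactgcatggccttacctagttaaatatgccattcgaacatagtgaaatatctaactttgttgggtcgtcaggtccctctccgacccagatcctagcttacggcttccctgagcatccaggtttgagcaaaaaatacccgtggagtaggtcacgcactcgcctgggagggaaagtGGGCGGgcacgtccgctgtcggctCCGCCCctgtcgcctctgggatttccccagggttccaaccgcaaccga
Chek2: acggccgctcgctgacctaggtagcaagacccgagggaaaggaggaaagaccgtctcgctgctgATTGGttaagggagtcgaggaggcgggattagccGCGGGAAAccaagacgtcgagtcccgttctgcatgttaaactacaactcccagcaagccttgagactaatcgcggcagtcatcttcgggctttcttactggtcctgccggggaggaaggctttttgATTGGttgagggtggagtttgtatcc
Brca2: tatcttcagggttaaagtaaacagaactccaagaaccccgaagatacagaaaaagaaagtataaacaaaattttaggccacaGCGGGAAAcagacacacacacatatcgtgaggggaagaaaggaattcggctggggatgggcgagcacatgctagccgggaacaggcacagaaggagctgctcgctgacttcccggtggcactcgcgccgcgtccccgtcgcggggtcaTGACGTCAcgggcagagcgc
Rpa1: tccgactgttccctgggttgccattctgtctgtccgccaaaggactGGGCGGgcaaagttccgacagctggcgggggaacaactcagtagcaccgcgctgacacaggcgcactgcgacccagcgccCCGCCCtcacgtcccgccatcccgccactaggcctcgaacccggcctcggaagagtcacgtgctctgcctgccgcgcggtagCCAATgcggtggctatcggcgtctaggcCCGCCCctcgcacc
Msh6: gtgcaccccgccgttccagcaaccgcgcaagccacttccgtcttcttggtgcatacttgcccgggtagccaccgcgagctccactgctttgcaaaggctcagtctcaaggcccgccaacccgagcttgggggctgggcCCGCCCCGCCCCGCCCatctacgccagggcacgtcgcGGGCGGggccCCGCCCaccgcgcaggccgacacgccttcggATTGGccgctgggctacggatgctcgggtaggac

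The motifs were TTTCCCGC and TTTGGCGC of the E2F factors, which drive S-phase genes, CCAAT of NF-Y, the palindromic motif of NRF1, CCGGAAG of ETS factors, TGACGTCA of CREB and ATF, and GGGCGG of SP1. No motif contains another, but neighbouring matches can share bases, as the SP1 matches before Msh6 do. TTTCCCGC stood in 5 of 35 member windows (14.3%), those of Chek2, Mdc1, Brca2, Bard1 and Xrcc6, against 1.80% of 11604 windows of tested genes. Chek2 and Brca2, both called lower in the haploid lines, carried it starting 152 and 168 bases before the start site. Atr, Rpa1 and Msh6 had no such match in this window. CCAAT stood in 45.7% of member windows against 35.5%, and GGGCGG in 60% against 59.5%. CCGGAAG stood in 20% against 13.7%, TGACGTCA in 5.71% against 2.61%, the NRF1 motif in 2.86% against 1.69%, and TTTGGCGC in none against 0.827%. Msh6 had 5 matches of GGGCGG, Rpa1 3 and Atr 2, and these matches describe the sequence only. The median GC content was 58.8% in member windows and 60.4% in windows of tested genes.

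**Figure D3:**
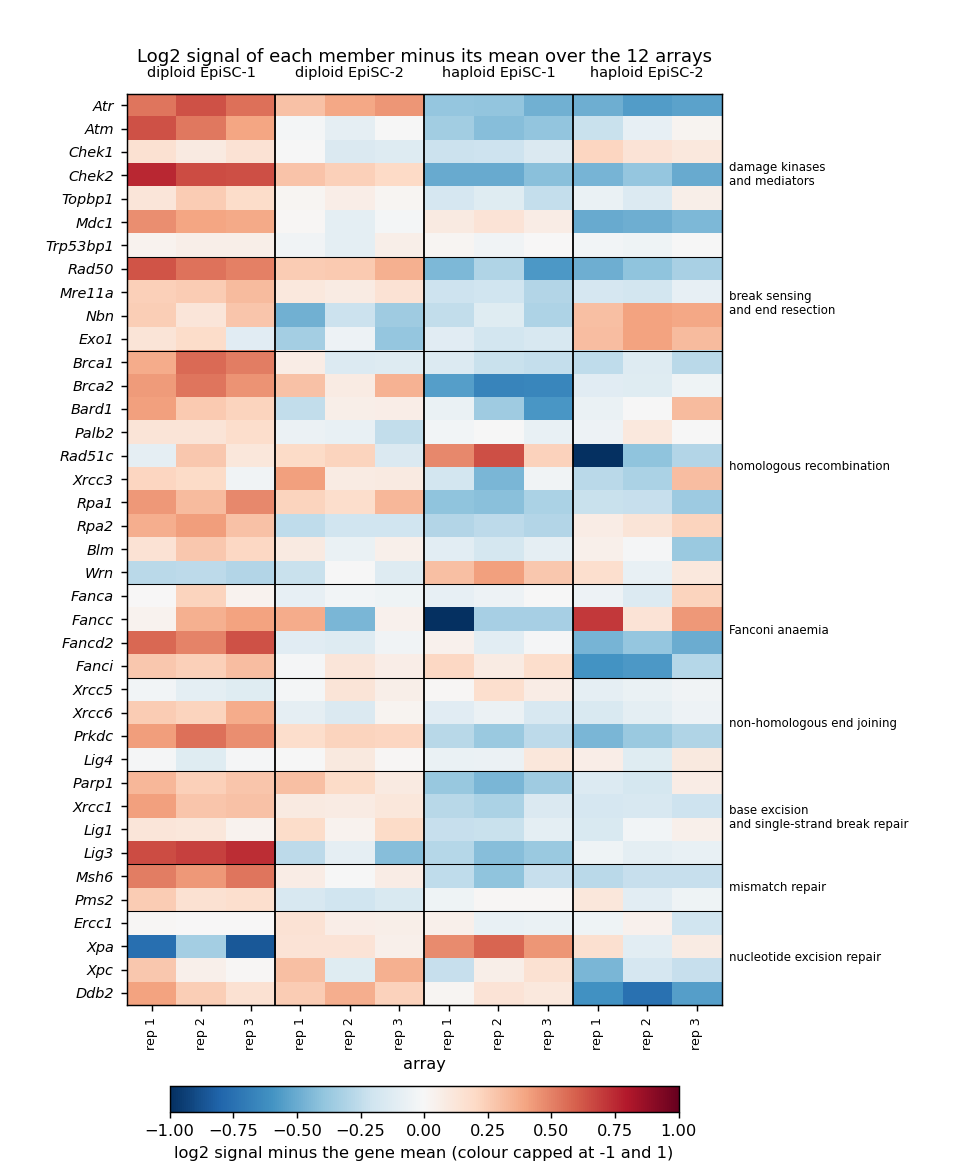
Log2 signal of each member minus its own mean over the 12 arrays (colour, capped at -1 and 1), with arrays in columns by line and members in rows by pathway. The 3 columns of diploid EpiSC-1 are red for most members, and 25 of 39 members had their highest mean in that line.

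Members also differed between the lines of a ploidy. Diploid EpiSC-1 had the highest mean in 25 of 39 members, against 27.2% of all tested genes. Haploid EpiSC-1 had the lowest mean in 19 members, against 27.0% of all tested genes, and haploid EpiSC-2 in 11, against 22.1%. The median standard deviation of a member between replicates of a line was 0.06 to 0.08 on the log2 scale.

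Diploid EpiSC-2 was compared with diploid EpiSC-1, 2 lines of the same strain. Of 39 members, 23 had lower signals in diploid EpiSC-2 and 1 had higher signals (61.5% called, beside 55.8% of all tested genes). Lower calls were 29.4% and higher calls 26.4% of all tested genes. The arrays of the 2 lines did not overlap in 29 members, 24 of them lower and 5 higher in diploid EpiSC-2, beside 61.5% of all tested genes (32.5% lower and 29% higher). On the probe sets used, no member was called with a difference of 2-fold or more, beside 6.78% of all tested genes. Dimmer probe sets of Brca1 (-1.34) and Exo1 (-1.19 and -1.58) passed 2-fold and were called lower in a limma fit of all probe sets. The median difference was -0.22 over the members and -0.01 over all genes. The lower calls took in 6 of 7 kinases and mediators, all 4 sensing and resection genes, 5 of 10 recombination genes, 2 of 4 Fanconi genes, 2 of 4 end-joining genes, 2 of 4 single-strand break genes and both mismatch repair genes. Parp1 was not called on the probe set used (-0.09), but its 3 other probe sets above the filter were called lower in a limma fit of all probe sets (-0.65, -0.99 and -0.56), and their average with the one used fell too (-0.57, adjusted p = 1.08e-05).

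Lig3, the ligase that works with Xrcc1, had the lowest difference on the probe sets used. It gave 1699, 1738 and 1804 in diploid EpiSC-1 and 899.7, 1015 and 804 in diploid EpiSC-2. The lines were separated without overlap, at -0.95 ± 0.07 (SE; limma adjusted p = 6.79e-08). On the mean of all Lig3 probe sets the difference was -0.56 (adjusted p = 0.0252). Fancd2, of the pair that the Fanconi core complex modifies, gave 883, 836 and 919 in diploid EpiSC-1 and 549, 541 and 579 in diploid EpiSC-2. The difference was -0.66 ± 0.07 (SE, limma adjusted p = 1.93e-06). Its arrays did not overlap, but on the mean of all its probe sets, dim ones included, the difference was -0.01 (adjusted p = 0.973).

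Rpa2, the regulated subunit of the single-strand binding complex, gave 2824, 2935 and 2689.5 in diploid EpiSC-1 and 1842, 1907 and 1912 in diploid EpiSC-2, without overlap (-0.58 ± 0.05 SE, adjusted p = 1.50e-07). Nbn, which brings Atm to breaks, gave 788, 723 and 808 in diploid EpiSC-1 and 477, 572 and 519 in diploid EpiSC-2, with every array of diploid EpiSC-2 below those of diploid EpiSC-1 (-0.57 ± 0.08 SE, adjusted p = 3.27e-05). On the probe sets used, the other lower calls were between -0.56 for Atm and -0.15 for Topbp1. All but Exo1 and Rpa1 had arrays that did not overlap. For Atr, a dimmer probe set was called in the opposite direction in a limma fit of all probe sets (0.70, adjusted p = 0.0336). Xpa was the one member called higher, with 312, 415 and 292 in diploid EpiSC-1 and 579, 578 and 545 in diploid EpiSC-2 (0.76 ± 0.11 SE, adjusted p = 5.72e-05). Its diploid EpiSC-2 arrays all lay above those of diploid EpiSC-1.

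Some of the smaller calls lay near the threshold. Fanci (-0.21, adjusted p = 0.046) lost its call in 8 of the 12 fits without 1 array, at adjusted p of 0.0501 to 0.142 and differences of -0.23 to -0.18. These were the fits without any 1 array of diploid EpiSC-1 or haploid EpiSC-1 and without array 1 or 3 of diploid EpiSC-2. Rpa1 (-0.17) lost it without array 1 or 3 of diploid EpiSC-1 and without array 1 or 2 of diploid EpiSC-2 (-0.16 to -0.14, adjusted p at most 0.0734). Topbp1 lost it without array 2 or 3 of diploid EpiSC-1 and without array 1 or 3 of diploid EpiSC-2 (-0.15 to -0.12, at most 0.103). Brca2 (-0.23) lost it without array 2 of diploid EpiSC-2 (-0.15, adjusted p = 0.0577), and Mre11a (-0.16) without array 3 of diploid EpiSC-1 (-0.13, adjusted p = 0.055). Blm, Trp53bp1 and Xrcc5, which were not called here, passed the threshold in 1, 1 and 3 such fits: Blm without array 3 of haploid EpiSC-2, Trp53bp1 without array 3 of diploid EpiSC-2, and Xrcc5 without array 1 of either diploid line or array 2 of haploid EpiSC-1. In the same comparison 13 of 20 S-phase genes were called lower and none higher, and their summed signal was 114048 to 115708 in diploid EpiSC-1 and 95738 to 100649 in diploid EpiSC-2. Of 12 feeder markers 7 were called higher and 2 lower in diploid EpiSC-2, with summed signals of 3180 to 3433 in diploid EpiSC-1 and 6863 to 7620 in diploid EpiSC-2. Of 10 epiblast markers 4 were called higher and 5 lower. The 3' to 5' ratios were 1.46 to 1.53 against 1.57 to 1.68 for actin and 0.821 to 0.85 against 0.913 to 0.938 for Gapdh, without overlap. The part of these genes and ratios in the repair gene differences was not tested.

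**Figure D4:**
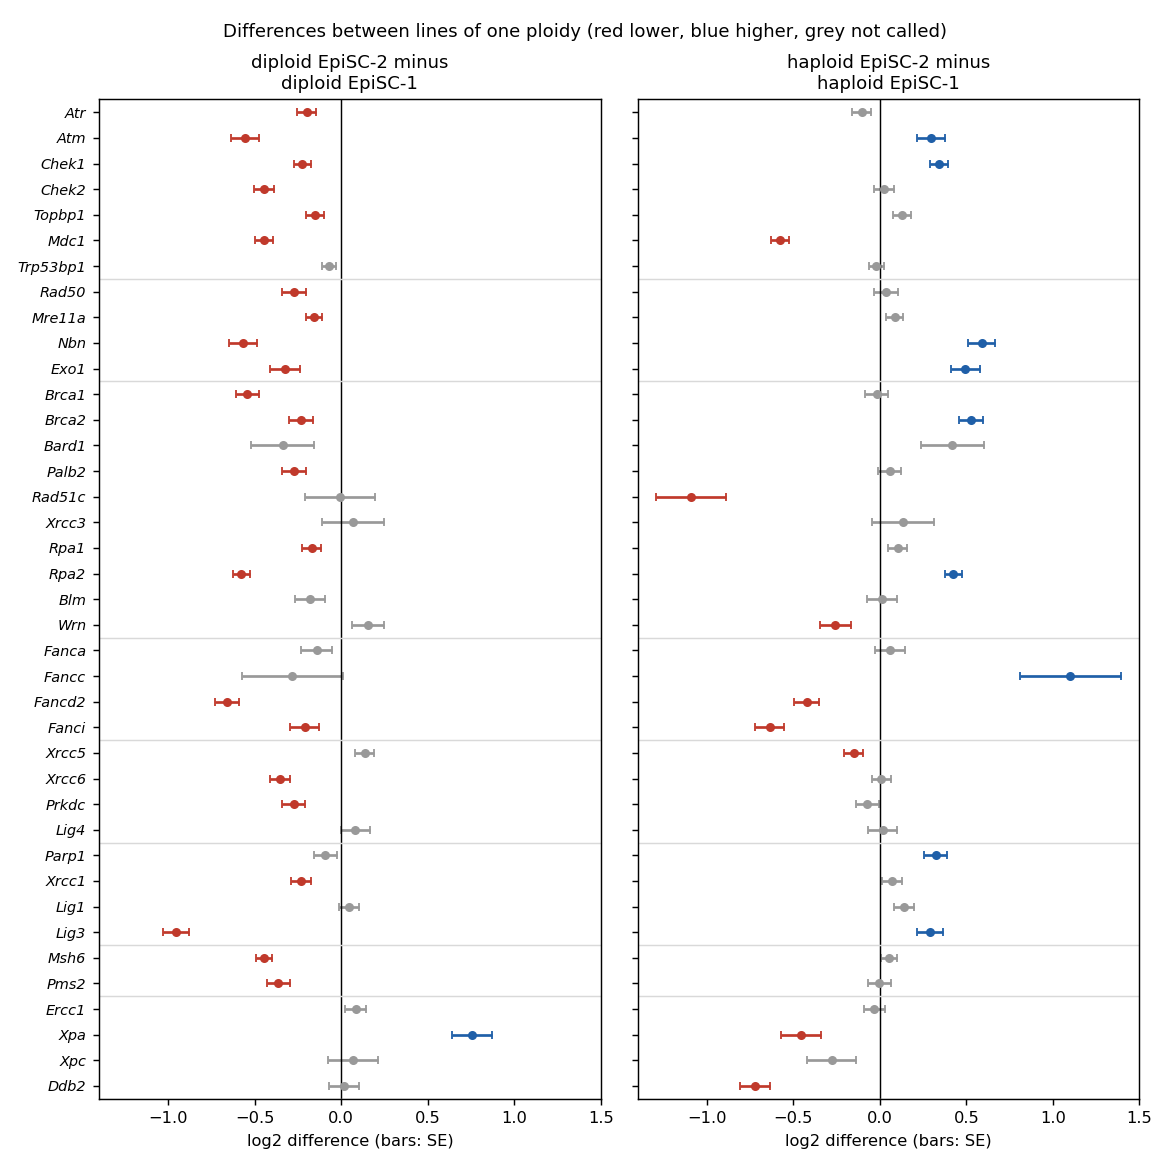
The plot of differences between lines of one ploidy gives the log2 difference of each member with its SE for diploid EpiSC-2 minus diploid EpiSC-1 (left) and haploid EpiSC-2 minus haploid EpiSC-1 (right), red for lower and blue for higher. The left panel holds 23 red points and 1 blue point, and the right panel 8 red and 9 blue.

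Haploid EpiSC-2 was compared with haploid EpiSC-1, both of strain 129Sv. Of 39 members, 9 had higher and 8 had lower signals in haploid EpiSC-2 (43.6% called, beside 56.6% of all tested genes). Higher calls were 25.7% and lower calls 31% of all tested genes, and the median difference was 0.04 over the members and -0.05 over all genes. The arrays of the 2 lines did not overlap in 20 members, 11 of them higher and 9 lower, beside 63.6% of all tested genes (28.3% higher and 35.3% lower). On the probe sets used, Rad51c and Fancc were called with a difference of at least 2-fold, beside 6.84% of all tested genes. The split of the calls depended on the scaling. Centred on array medians, the median of all genes shifted by 0.16, to 0.11, and 21 members were called higher and 6 lower, while all genes went from 2849 higher and 3439 lower to 4184 higher and 2207 lower. Relative to the median of each chromosome, 16 members were called higher and 5 lower, and 3427 genes higher and 2652 lower.

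The genes higher in haploid EpiSC-2 included sensing and resection genes. Nbn gave 559.7, 612 and 537 in haploid EpiSC-1 and 818, 878 and 868 in haploid EpiSC-2, without overlap (0.59 ± 0.08 SE, limma adjusted p = 2.34e-05). Exo1 gave 1362, 1298 and 1323 in haploid EpiSC-1 and 1827, 1949 and 1835 in haploid EpiSC-2, again without overlap (0.49 ± 0.09 SE, adjusted p = 2.00e-04). Fancc had the highest difference, with 40.2, 82 and 82 in haploid EpiSC-1 and 169, 113 and 139 in haploid EpiSC-2. These dim signals did not overlap but were widely spread within each line (1.10 ± 0.29 SE, adjusted p = 0.00492). Fancc lies on chromosome 13, where the median difference of 391 genes was 0.41. In the setting relative to each chromosome's median, whose shift was not this median difference, Fancc differed by 0.62 (adjusted p = 0.0883).

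Brca2 was higher in haploid EpiSC-2 by 0.53 ± 0.07 (SE; adjusted p = 1.45e-05), from the haploid signals given above, which did not overlap. The remaining higher calls were Rpa2 (0.43), Chek1 (0.34), Parp1 (0.32), Atm (0.30) and Lig3 (0.29), all without overlap. On the mean of all probe sets Chek1 (adjusted p = 0.622), Lig3 (0.662) and Atm (0.0875) were not called. Each Chek1 probe set above the filter was called higher in the limma fit of all probe sets (0.33, 0.34 and 0.49). The Chek1 mean also took in signal under the filter. Haploid EpiSC-2 also had 12 of 20 S-phase genes called higher and 2 lower, with summed signals of 103833 to 106691 against 91191 to 92901 in haploid EpiSC-1. Of 10 epiblast markers 7 were called higher and 2 lower, with a median of 0.69, and their sums and the levels of Otx2 and Fgf5 in each haploid line are given above. Of 12 feeder markers 1 was called higher and 5 lower. The part of these genes in the repair gene differences was not tested.

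Rad51c, a recombinase paralog, was the lowest in haploid EpiSC-2, with 472, 527 and 397 in haploid EpiSC-1 and 145, 256 and 276 in haploid EpiSC-2. The lines did not overlap although each spread widely (-1.09 ± 0.20 SE, 2.13-fold, adjusted p = 3.53e-04). A second Rad51c probe set gave 245, 191 and 204 in haploid EpiSC-1 and 107, 155 and 120.0 in haploid EpiSC-2, also without overlap. Ddb2 gave 465, 504 and 494 in haploid EpiSC-1 and 301, 273 and 313 in haploid EpiSC-2 and was lower by a wide margin in every array of haploid EpiSC-2 (-0.72 ± 0.09 SE, adjusted p = 6.61e-06). Its second probe set gave 494, 579 and 503 in haploid EpiSC-1 and 285, 255 and 254 in haploid EpiSC-2, with the same order.

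Fanci gave 705, 645 and 687 in haploid EpiSC-1 and 403, 411 and 502 in haploid EpiSC-2, without overlap (-0.64 ± 0.08 SE, adjusted p = 1.67e-05). On the mean of all its probe sets, dim ones included, the difference was -0.14 (adjusted p = 0.735). Mdc1 gave 1274, 1315 and 1261 in haploid EpiSC-1 and 845, 856 and 879 in haploid EpiSC-2, with tight replicates and no overlap (-0.58 ± 0.05 SE, adjusted p = 3.07e-07). Xpa (-0.46), Fancd2 (-0.42), Wrn (-0.26) and Xrcc5 (-0.15) were the other lower calls. Fancd2 lies on chromosome 6, where the median difference of 542 genes was -0.31. In the setting relative to each chromosome's median, whose shift was not this median difference, Fancd2 differed by 0.032 (adjusted p = 0.746). Xrcc5 turned to 0.0077 (adjusted p = 0.929) when arrays were centred on their medians.

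Calls that changed without 1 array were few. Wrn was lost without array 2 of haploid EpiSC-1 (-0.22, adjusted p = 0.0898) or of haploid EpiSC-2 (-0.19, adjusted p = 0.113). Xrcc5 was lost without array 2 or 3 of haploid EpiSC-1 and without array 1 or 2 of haploid EpiSC-2 (-0.16 to -0.11, at most 0.143). Bard1 (0.0297) and Xpc (0.0444), not called with all arrays, were called without array 1 of haploid EpiSC-1, and Rpa1 without array 3 of haploid EpiSC-2 (0.0384). Lig1 was called in 3 such fits, without array 2 of diploid EpiSC-2, array 3 of haploid EpiSC-1 or array 1 of haploid EpiSC-2. Topbp1 was called in 3 as well, without array 2 of diploid EpiSC-1, haploid EpiSC-1 or haploid EpiSC-2.

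**Figure D5:**
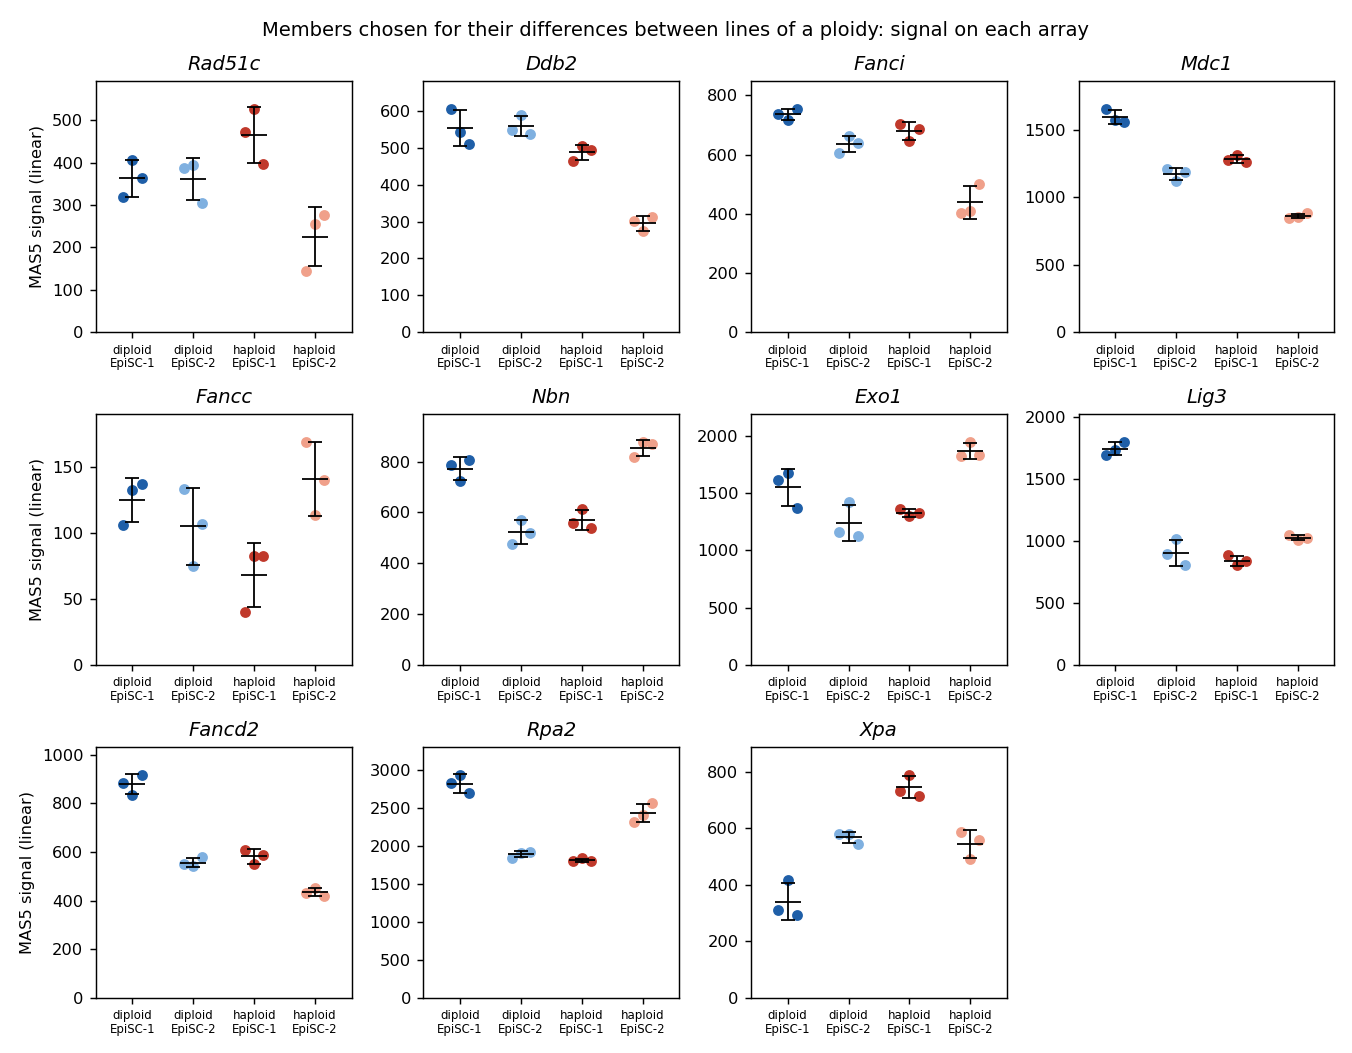
Linear MAS5 signal (vertical axis, from 0) of 11 members called between lines of a ploidy but not between ploidies, the 4 highest and 4 lowest of each line comparison, for each array (points) with the mean and standard deviation of 3 replicates (bars). Rad51c, Ddb2, Fanci and Mdc1 are lowest in haploid EpiSC-2, while Lig3, Fancd2 and Rpa2 are highest in diploid EpiSC-1.

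The 9 members called in neither pair of lines (23.1%, beside 22.4% of all tested genes) were Trp53bp1, Bard1, Xrcc3, Blm, Fanca, Lig4, Lig1, Ercc1 and Xpc. A second Trp53bp1 probe set was called lower in both pairs in the fit of all probe sets, at -0.17 between the haploid lines (adjusted p = 0.0317) and -0.44 between the diploid lines (adjusted p = 3.41e-05). In the same limma fit a second Xrcc3 probe set was called lower between the diploid lines (-0.45, adjusted p = 0.032). Of the 7 members called lower in the haploid lines, Atr, Chek2, Rad50, Rpa1, Prkdc and Msh6 were not called between the haploid lines, where their differences lay between -0.10 and 0.10. Brca2 alone among them was. The dimmer probe sets of Atr differed there, at -1.06 (adjusted p = 0.0032) and -0.59 (adjusted p = 0.00829), and the mean of all Atr probe sets was lower in haploid EpiSC-2 by a log2 difference of -0.58 (adjusted p = 0.00287). Between the diploid lines all 7 were called, lower in diploid EpiSC-2 on the probe sets used, from -0.45 for Msh6 to -0.17 for Rpa1.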

How the data were processed

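The members and all gene lists were chosen with earlier results of these data known. The authors deposited signal intensities computed with MAS5 (per the submitters' processing notes, which name no version), and the values are linear. Their log2 was taken with no pseudocount and no further normalization. Of 45101 probe sets, 64 controls were dropped, and 34945 had 1 gene symbol in the platform annotation, 932 several and 9160 none; only the first were used. Neither detection calls nor scan dates were used, and 3 arrays per line limit the precision.

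Ploidies were compared with limma 3.58.1 (R 4.3.3, statmod 1.5.0), with the line as a random block (duplicateCorrelation, 0.806), eBayes with an intensity trend, and Benjamini-Hochberg adjustment over 11105 genes. Lines were compared in a fit of 4 group means over 12 arrays. Tests were two-sided. Each fit was tested on simulated data, in which the ploidy fit also called genes that had been left unchanged, while line means called none of these, so values with line means are given beside its calls.

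Every member is named. Array values are given for members called between ploidies and for the 4 highest and 4 lowest called, non-overlapping members of each line comparison. Of other pathway genes the 3 with the lowest p in each direction are named. Promoters were the 250 bases before each RefSeq start site (GRCm38.p6), and their motifs were chosen after the calls were known. Alternatives were quantile normalization, centring on array medians, a pseudocount of 16, no filter or a filter at a signal of 200, all probe sets averaged or tested singly, no intensity trend, the replicate number as a block, line means, no line block, and leaving out each line or array. The alternative relative to each chromosome's median was chosen after seeing the data. Its shift was not the median of the differences of a chromosome's genes.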

Additional observations from a re-analysis of the deposited data

Results flagged for a closer look

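The haploid lines lay on opposite sides of the mean of the diploid lines in 8 members. The 7 whose difference between the haploid lines passed the limma test are given here, and Palb2 (-0.05 and 0.0084) did not pass it (adjusted p = 0.513). Values against the diploid mean are given for haploid EpiSC-1 first and haploid EpiSC-2 second. Chek1 was -0.21 and 0.13, a difference of 0.34 (adjusted p = 4.48e-05). Nbn was -0.16 and 0.43, a difference of 0.59 (adjusted p = 2.34e-05). Exo1 was -0.06 and 0.44, a difference of 0.49 (adjusted p = 2.00e-04). Rpa2 was -0.35 and 0.07, a difference of 0.43 (adjusted p = 3.52e-06). Fancc was -0.80 and 0.30, a difference of 1.10 (adjusted p = 0.00492). Its mean log2 signal of 6.01 in haploid EpiSC-1 neared the filter at 5.97, and relative to its chromosome's median Fancc was not called. Rad51c went the other way, at 0.36 and -0.73, a difference of -1.09 (adjusted p = 3.53e-04). Xrcc5 was 0.10 and -0.05, a difference of -0.15 (adjusted p = 0.0328), and its sign turned under centring on array medians. The diploid mean itself spans lines that differed in 24 of 39 members. No group was tested for single outlying arrays, since each held 3.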

How the results depend on the processing

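The count of members called between the ploidies was 0 of 39 with line means as the units, beside 2.93% of all genes. With no line block it was 19 (48.7%, beside 49.6%). It was 4 without the line diploid EpiSC-1 (10.3%, beside 18.5%) and 14 without the line diploid EpiSC-2 (35.9%, beside 20.3%). Over all genes it was 325 with line means, 5508 with no line block, 3290 with no filter (18193 genes tested) and 3157 with every probe set tested as its own row. Between the haploid lines, 27 of 39 members were called with centring on array medians (69.2%, beside 57.6% of all genes). With the mean of all probe sets, 11 of 38 were called (28.9%, beside 45.9%). With every probe set as its own row, 31 of 67 member probe sets were called (46.3%), beside 9827 (49.5%) of all probe sets tested. Between the diploid lines, testing every probe set called 45 of 67 member probe sets (67.2%), beside 10574 (53.3%) of all probe sets tested. Leaving out 1 array gave 7 to 8 members and 1728 to 1811 genes between the ploidies, 16 to 19 and 5689 to 6354 between the haploid lines, and 20 to 25 and 5590 to 6202 between the diploid lines. Among values called in the main analysis or under the alternative, directions reversed for Trp53bp1 (0.14) and Xrcc5 (0.0077) between the haploid lines with centring, for Fancd2 between the haploid lines (0.032) and Rpa1 between the diploid lines (0.031) relative to the chromosome median, and for Atr between the diploid lines with all probe sets averaged (0.068); the cause was not tested. Values called under neither setting changed sign 36 times between the ploidies, 38 between the haploid lines and 14 between the diploid lines. Among same-numbered replicates of different lines, 0 of 18 pairs correlated over 0.1 in their deviations (-0.05 to 0.08). Pairs of unlike number were not set beside them, so whether the numbers pair the samples was not settled. With the replicate block, members called were 7, 17 and 24 and genes 1651, 6309 and 6202. Dim probe sets limit Fancc and Bard1, whose signals neared the filter, and folds near background are uncertain in size.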
